A study of Bassia scoparia with 27 samples.

Results

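IAA15, IAA29 and Aux/IAA4-like are Aux/IAA transcripts of kochia (Bassia scoparia), a broadleaf weed, and they were followed here before and after treatment with the auxin-mimic herbicide fluroxypyr. They are 3 of 45517 transcripts in the expression table and were chosen as Aux/IAA transcripts by their annotation. The study counted many more genes with an Aux/IAA domain or function. The others were not examined here, so the 3 do not stand for the family. Each of them also stands in the study's list of the most raised transcripts of line 9425 at 3 h after treatment. The 3 identifiers are Bs.00g301680.m01 for IAA15, Bs.00g048560.m01 for IAA29 and Bs.00g107340.m01 for Aux/IAA4-like, which the study also described as related to IAA1. All 3 passed the filter on low values that left 29165 transcripts for testing. That the 3 transcripts rise after fluroxypyr was already known when they were chosen, so the comparisons below concern how much, how fast and for how long each one rose. The rise of 9425 at 3 h is given as a description, and comparisons of other lines with it are not independent of the choice. That rise also rests on the untreated 9425 libraries, so comparisons that use these are not independent of the choice either.

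RNA-seq was done on 27 libraries of 3 lines. Flur-R (called B3 in the labels) is fluroxypyr-resistant and was bred by selecting survivors of a field population over several generations, 9425 is an inbred line that is dicamba-resistant through a mutation in another Aux/IAA gene, IAA16, and J01-S (called J01 in the labels) is a susceptible field population. Both 9425 and J01-S are susceptible to fluroxypyr. The study found the same IAA16 mutation segregating in the Flur-R population, and the labels do not give the genotype of each plant. Untreated tissue was taken from water-sprayed plants a day before the herbicide was applied, and the same plants were sampled 3 and 10 h after treatment (HAT). Flur-R and 9425 had 3 untreated, 3 at 3 HAT and 4 at 10 HAT libraries, and J01-S had 2, 2 and 3. Each library is 1 plant, no group that received water alone was sampled at 3 or 10 h, and time since the first sampling therefore cannot be told apart from treatment. A few plants flowered early and cannot be matched to libraries.

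Aux/IAA proteins are short-lived repressors that bind auxin response factors (ARFs) and keep auxin-responsive genes off. Auxin, or a herbicide that mimics it, joins an Aux/IAA protein to the receptor TIR1 or an AFB protein, the repressor is ubiquitinated and degraded, and the ARF is released. Many Aux/IAA genes are themselves early targets of the ARFs, so that the hormone destroys the repressor proteins and at the same time raises their transcripts, a negative feedback loop that has been described mainly in Arabidopsis and pea.

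The 3 genes lie on different chromosomes of the kochia genome assembly version 2 and differ in exon number. IAA15 is on chromosome 9 from 5126719 to 5127795 on the plus strand, with 5 coding exons and 579 bases of coding sequence, or 193 codons. IAA29 is on chromosome 8 from 87090874 to 87092782 on the plus strand, with 4 coding exons, 765 bases and 255 codons. Aux/IAA4-like is on chromosome 4 from 87188917 to 87189546 on the minus strand, with 2 coding exons, 510 bases and 170 codons. Each locus has 1 annotated transcript and no annotated UTR. The values are normalized counts per transcript, that is, read counts the authors scaled to make libraries comparable and rounded to whole numbers. Levels of different genes are compared per kilobase (kb) of coding sequence, since a longer transcript collects more reads.

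Several properties of the libraries bear on the results. Totals of normalized counts ran from 59.4 M to 76.9 M in untreated libraries, from 60.0 M to 75.6 M at 3 HAT and from 50.9 M to 61.3 M at 10 HAT, where M stands for 1e6, while the median change of all tested transcripts stayed within 0.06 log2 units of 0 in every comparison of a time point with untreated. A check of the 10 HAT libraries over 1216 transcripts that separate 9425 from J01-S before treatment and at 3 HAT put J01-S replicate 3 on the 9425 side for 94.2% of the transcripts, and 9425 replicate 3 for 39.6%. The remaining 9425 libraries gave 91.3 to 96.1%, and J01-S replicates 4 and 2 gave 7.98% and 30.8%. The Flur-R libraries, which these transcripts were not chosen to separate, gave 41.7 to 64.5%. The check therefore does not show which line 9425 replicate 3 came from. J01-S replicate 3 and 9425 replicate 3 go against their labels and are kept as labelled. The fits, ratios and levels at 10 HAT are also given without these 2 libraries. The tissue is labelled as meristem, whereas the protocol speaks of young leaves. No meristem marker could be looked up, and all 7 photosynthesis markers were detected in every group, with a summed level of 859028 to 1388034 in untreated libraries, 271441 to 515430 at 3 HAT and 45691 to 106207 at 10 HAT. The part of this fall in the results below was not tested, and in bulk tissue fewer cells of a type and less RNA per cell cannot be told apart. Libraries of the same plant resembled each other beyond their group, so tests with the plant as a block are given wherever they change a call.

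In untreated plants all 3 transcripts were expressed, from 265 to 2390 normalized counts. IAA15 measured 1804, 855 and 1621 for Flur-R, 746, 1294 and 878 for 9425, and 1968 and 1230 for J01-S. IAA29 measured 1644, 489 and 797 for Flur-R, 635, 1119 and 549 for 9425, and 2390 and 1583 for J01-S. Aux/IAA4-like measured 1230, 388 and 265 for Flur-R, 473, 383 and 565 for 9425, and 1432 and 938 for J01-S. For IAA29 and Aux/IAA4-like both J01-S libraries lay above all 3 of 9425, and the Flur-R plant with the highest values, plant 2, overlapped J01-S while the other Flur-R plants did not. For IAA15 the 3 lines overlapped.

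**Figure D1:**
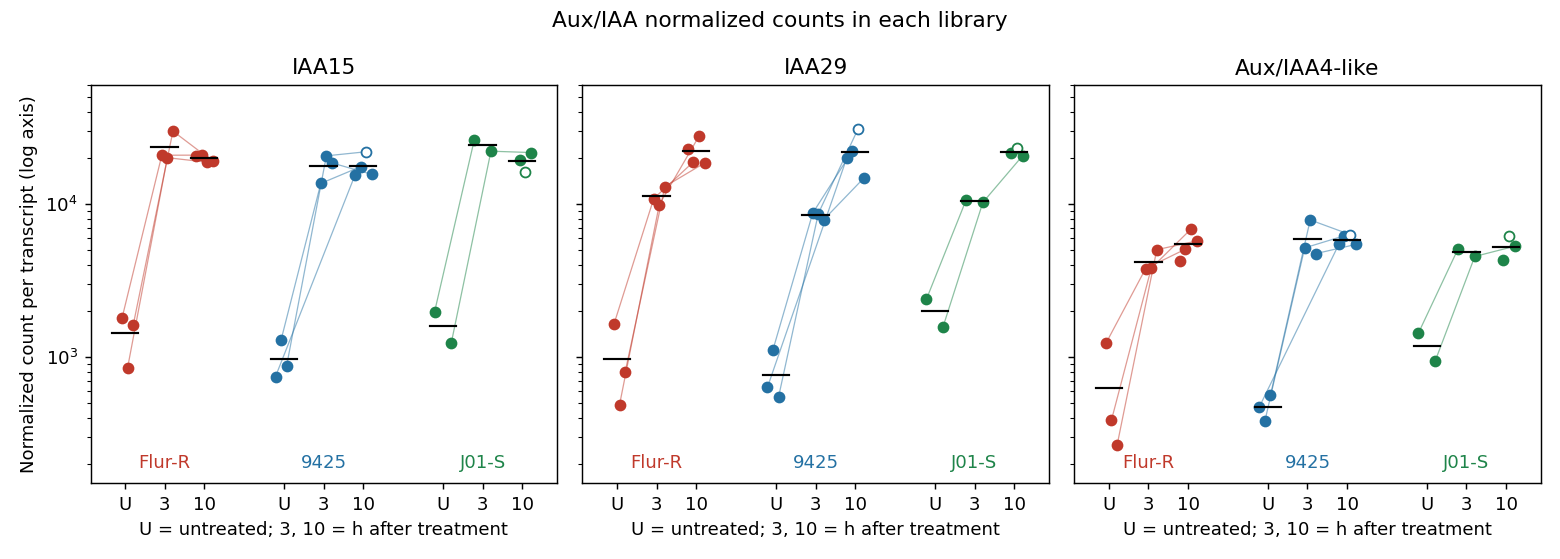
Normalized count of IAA15, IAA29 and Aux/IAA4-like in each of the 27 libraries (log axis), by line and by time (U, untreated; 3 and 10, h after treatment). Points are libraries, black bars are group means, thin lines join libraries of the same plant, and open points are the 2 libraries that go against their labels. IAA15 reached 13642 to 29950 by 3 HAT and went no higher as a group by 10 HAT, whereas IAA29 went from 7924 to 13010 at 3 HAT to 14735 to 30971 at 10 HAT.

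Basal levels differed between the lines for 1 of the 3 transcripts, in 1 of 3 comparisons. That comparison uses the untreated 9425 libraries, which also entered the listed rise at 3 h, so it is not independent of the choice. IAA29 was lower in 9425 than in J01-S by a log2 difference of -1.41 ± 0.37 (SE; limma, adjusted p = 0.0461), in a comparison in which 1.55% of all tested transcripts were called lower. With the plant number as a block, which here pairs unrelated plants, the difference was -1.55 (adjusted p = 0.0521), and it also missed the threshold in a fit of only these groups (adjusted p = 0.150) and when any one of 4 of the 5 libraries was left out, so the call is marginal. Aux/IAA4-like differed in the same direction by -1.31 ± 0.40 (adjusted p = 0.0894) and IAA15 by -0.72 ± 0.29 (adjusted p = 0.208), neither of which passed.

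Flur-R passed the test against neither susceptible line before treatment. Against J01-S, where 2.04% of transcripts were called in either direction, limma called 0 of the 3 members and 2 had an unadjusted p under 0.05. IAA29 differed by -1.17 ± 0.37 on the log2 scale, with a 95% interval of -1.94 to -0.40 (adjusted p = 0.132), and Aux/IAA4-like by -1.21 ± 0.40, with an interval of -2.04 to -0.37 (adjusted p = 0.166). Both depended on Flur-R plant 2. Without its untreated library IAA29 was lower in Flur-R by -1.64 (adjusted p = 0.0165) and Aux/IAA4-like by -1.85 (adjusted p = 0.00148), and without all libraries of that plant, a setting chosen after seeing the data, the adjusted p were 0.0320 and 0.00425. Against 9425, where 3.28% were called, 0 of the 3 members were called by limma and 0 had an unadjusted p under 0.05, with differences of 0.52 (-0.02 to 1.06) for IAA15, 0.24 (-0.45 to 0.93) for IAA29 and 0.10 (-0.65 to 0.85) for Aux/IAA4-like.

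Scaled to length, IAA15 was the most abundant of the 3 before treatment. Its median over the 8 untreated libraries was 2180 normalized counts per kb, with 1252 for IAA29 and 1018 for Aux/IAA4-like. Within libraries IAA29 lay below IAA15 by 0.71 log2 units on average, that is a mean log2 ratio of -0.71 ± 0.50 (SD, n = 8; exact two-sided sign-flip test, adjusted p over 3 pairs = 0.0117), and Aux/IAA4-like lay below IAA15 with a mean log2 ratio of -0.84 ± 0.78 (SD, n = 8; exact sign-flip test, adjusted p = 0.0117). Both were lower than IAA15 in 8 of 8 libraries, and the unadjusted p of 0.00781 is the smallest that 8 libraries allow. IAA29 and Aux/IAA4-like could not be ordered, with IAA29 higher in 4 of 8 libraries and a mean log2 ratio of 0.14 (exact sign-flip test, adjusted p = 0.516). The order of IAA15 and IAA29 depended on the division by coding length, since on undivided counts their ratio was -0.30 (exact sign-flip test, adjusted p = 0.141).

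At 3 HAT all 3 transcripts had risen in every line and no treated library overlapped an untreated one of its line. The share of all tested transcripts whose groups did not overlap was not computed, here or for the other groups compared in this text. IAA15, which rose most, measured 20841, 20084 and 29950 for Flur-R, 13642, 20651 and 18555 for 9425, and 26211 and 22146 for J01-S. The 8 libraries thus lay between 13642 and 29950, with the highest in Flur-R plant 4 and the lowest in 9425 plant 2. In group means this was 16.6-fold the untreated level for Flur-R, 18.1-fold for 9425 and 15.1-fold for J01-S.

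IAA29 rose by a smaller factor over the same 3 h. It measured 10857, 9926 and 13010 for Flur-R, 8734, 8665 and 7924 for 9425, and 10661 and 10253 for J01-S. Both J01-S libraries and all 3 Flur-R libraries were above all 3 of 9425, and replicates differed little within a line. The mean went from 977 to 11264 in Flur-R, or 11.5-fold (17.5-fold without the untreated library of plant 2), from 768 to 8441 in 9425 and only from 1987 to 10457, or 5.26-fold, in J01-S, the line with the highest untreated mean.

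Aux/IAA4-like measured 3790, 3810 and 5032 for Flur-R, 5171, 7874 and 4743 for 9425, and 5108 and 4545 for J01-S at 3 HAT. The lines overlapped, with 9425 plant 3 well above the rest. The means were 6.71-fold the untreated level for Flur-R, 12.5-fold for 9425 and 4.07-fold for J01-S. The Flur-R value rested on the untreated library of plant 2, without which it was 12.9-fold.

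All 9 of these rises passed the test, those of 9425 being a description. At 3 HAT 4.77% of the tested transcripts were called higher for Flur-R, 3.95% for 9425 and 4.24% for J01-S, and 569 transcripts, or 1.95%, in all 3 lines. The log2 fold changes of IAA15 were 4.10 ± 0.26 for Flur-R, 4.20 ± 0.26 for 9425 and 3.95 ± 0.32 for J01-S (SE; limma, adjusted p = 1.74e-08 for Flur-R and 1.52e-06 for J01-S). Those of IAA29 were 3.70 ± 0.33, 3.53 ± 0.33 and 2.43 ± 0.41 in the same order (limma, adjusted p = 7.70e-07 for Flur-R and 0.000761 for J01-S). Those of Aux/IAA4-like were 3.05 ± 0.36, 3.62 ± 0.36 and 2.05 ± 0.44 (limma, adjusted p = 1.39e-05 for Flur-R and 0.00562 for J01-S). With 1 library left out the Aux/IAA4-like rise in Flur-R ranged from 2.59 to 3.70, the highest without untreated plant 2, and was called each time. The rise of Aux/IAA4-like in J01-S, with 2 libraries a group, missed the threshold without J01-S untreated replicate 4 (1.75, adjusted p = 0.0979) and without J01-S replicate 1 at 3 HAT (1.97, adjusted p = 0.0679).

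**Figure D2:**
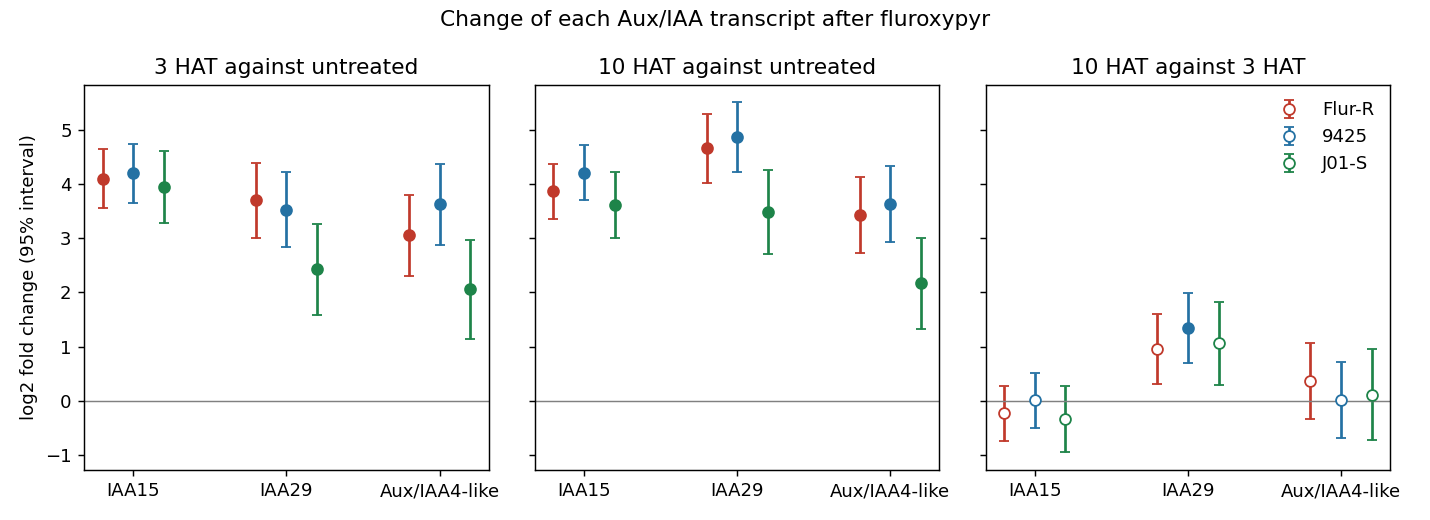
Log2 fold change of each transcript with its 95% interval from limma, by line, for 3 HAT against untreated, 10 HAT against untreated and 10 HAT against 3 HAT. Filled points passed the threshold (adjusted p below 0.05 with a log2 change of more than 0.5 either way) and open points did not. All 18 changes against untreated passed, and between 3 and 10 HAT only IAA29 in 9425 did, with 1.33.

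At 10 HAT IAA29 stood higher than at 3 HAT in every line. It measured 23022, 18874, 27796 and 18552 for Flur-R, 20118, 22293, 30971 and 14735 for 9425, and 21530, 23126 and 20685 for J01-S. Every 10 HAT library was above every 3 HAT library of its line, and the 3 lines overlapped. How many of all tested transcripts keep these groups apart was not computed. The highest value came from 9425 replicate 3, a library that goes against its label, and without it the 9425 mean was 19049 rather than 22029.

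IAA15 at 10 HAT had no called change from the level it had reached at 3 HAT. It measured 20737, 20872, 18768 and 19032 for Flur-R, 15467, 17526, 21963 and 15650 for 9425, and 19370, 16306 and 21707 for J01-S. The 10 HAT and 3 HAT libraries overlapped in Flur-R and 9425, and in J01-S all 3 libraries at 10 HAT were below both at 3 HAT.

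Aux/IAA4-like at 10 HAT also had no called change from 3 HAT. Its group means were 1.30-fold those at 3 HAT in Flur-R, 0.988-fold in 9425 and 1.09-fold in J01-S. It measured 4236, 5074, 6862 and 5736 for Flur-R, 5459, 6208, 6322 and 5443 for 9425, and 4342, 6154 and 5297 for J01-S. Libraries of the 2 times overlapped in every line, and the 11 libraries at 10 HAT spanned only 4236 to 6862.

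All 9 changes at 10 HAT against untreated passed, in comparisons in which 7.64% of transcripts were called higher for Flur-R, 11.3% for 9425 and 6.96% for J01-S, with 991 (3.4%) called in all 3 lines. The 9425 changes use the untreated libraries of its listed rise at 3 h and are not independent of the choice of the transcripts. The log2 fold changes of IAA29 were 4.66 ± 0.31 for Flur-R, 4.86 ± 0.31 for 9425 and 3.48 ± 0.37 for J01-S (SE; limma, adjusted p from 1.58e-09 to 1.95e-06). Those of IAA15 were 3.87 ± 0.24, 4.20 ± 0.24 and 3.61 ± 0.29 (limma, adjusted p from 5.79e-10 to 1.16e-07), and those of Aux/IAA4-like 3.42 ± 0.34, 3.64 ± 0.34 and 2.17 ± 0.40 (limma, adjusted p from 1.66e-07 to 0.000782). Without the 2 libraries that go against their labels the changes in 9425 were 4.68 for IAA29, 4.09 for IAA15 and 3.60 for Aux/IAA4-like, and in J01-S 3.44, 3.72 and 2.05, and all were still called. Without untreated Flur-R plant 2 the Aux/IAA4-like change in Flur-R was 4.07, also called. The 3 transcripts were among 314 (1.08% of those tested) called higher at both times in all 3 lines.

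Between 3 and 10 HAT the transcriptome-wide test called 1 of the 3 members, IAA29, in 9425, and the 3 lines were not shown to differ in this change. In 9425 its log2 change was 1.33 ± 0.31 (limma, adjusted p = 0.00977; 3.14% of transcripts called higher), and 1.15 without the 2 doubted libraries (adjusted p = 0.0475). It was 0.96 ± 0.31 in Flur-R, with an adjusted p of 0.0806, and 1.06 ± 0.37 in J01-S, with an adjusted p of 0.0748 (1.01 and 0.145 without the doubted library), so that in each of these lines limma called 0 of 3 members and 1, IAA29, had an unadjusted p under 0.05. In those lines 1.1% and 4.81% of transcripts were called higher. With the plant as a random block the Flur-R change was called (0.95, adjusted p = 0.0356) and the J01-S change was not (1.09, adjusted p = 0.0692). With the plant as a fixed block neither was called (0.93, adjusted p = 0.170 in Flur-R, and 1.15, adjusted p = 0.451 in J01-S), and with only the groups compared in the fit both were (adjusted p = 0.0359 in Flur-R and 0.0425 in J01-S).

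IAA15 and Aux/IAA4-like gave changes from 3 to 10 HAT that were smaller in size than those of IAA29 in each line. Those of IAA15 were -0.23 in Flur-R (95% interval -0.74 to 0.28), 0.01 in 9425 (-0.50 to 0.52) and -0.34 in J01-S (-0.95 to 0.26). Those of Aux/IAA4-like were 0.37 (-0.33 to 1.07), 0.02 (-0.69 to 0.72) and 0.11 (-0.73 to 0.95). None of the 6 passed, and the intervals leave room for changes of up to about 1 log2 unit.

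Plants followed through both times allow the same comparison within a plant. In the 7 plants sampled at 3 and at 10 HAT, 3 of Flur-R, 3 of 9425 and 1 of J01-S, IAA29 went up in 7 of 7, by 1.43-fold to 3.57-fold with a median of 2.02-fold. IAA15 went up in 3 of 7 plants, with changes from 0.635-fold to 1.28-fold, and Aux/IAA4-like in 6 of 7, from 0.803-fold to 1.80-fold. The smallest increase of IAA29 was in Flur-R plant 4, the plant with the highest IAA15 and IAA29 values at 3 HAT, and the largest in 9425 plant 3, whose 10 HAT library goes against its label. Without that plant IAA29 went up in 6 of 6, by 1.43-fold to 2.80-fold, IAA15 in 2 of 6 and Aux/IAA4-like in 6 of 6.

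Expressed as a share, IAA15 had at 3 HAT made 106% of its 10 HAT log2 rise for Flur-R, 99.8% for 9425 and 109% for J01-S. Aux/IAA4-like had made 89.2%, 99.6% and 94.8%, and IAA29 79.4%, 72.5% and 69.6%. Without the 2 doubted libraries the shares of 9425 and J01-S were 102% and 106% for IAA15, 101% and 100.3% for Aux/IAA4-like, and 75.3% and 70.5% for IAA29. The 3 lines thus gave the same lowest member, IAA29, in this description, which carries no test.

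**Figure D3:**
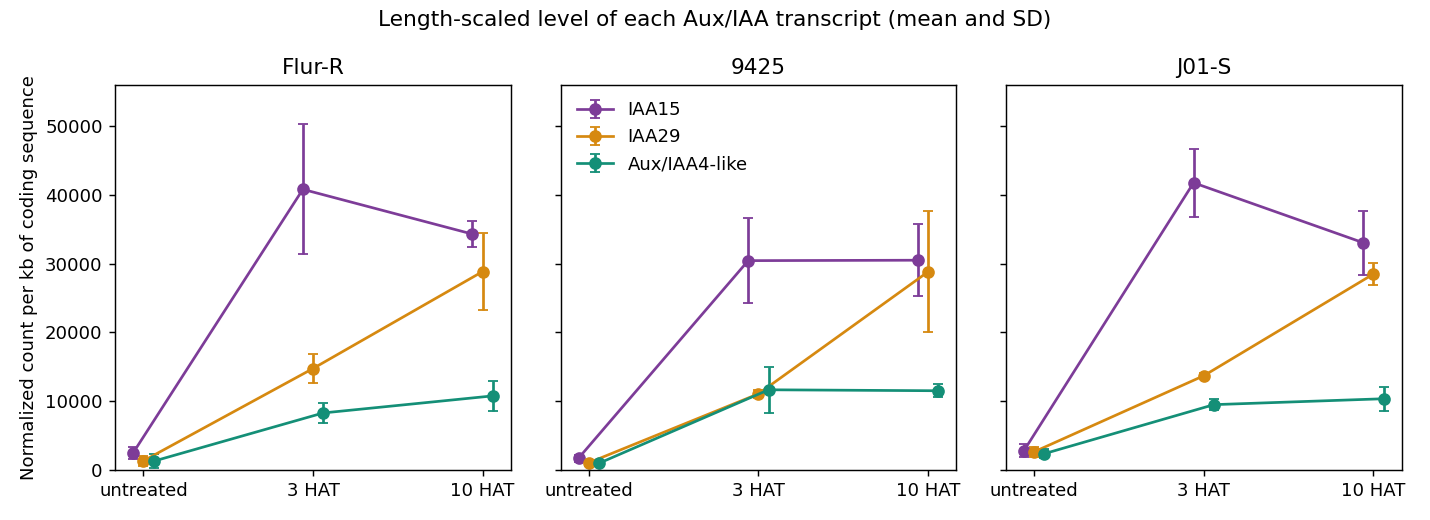
Normalized count per kb of coding sequence for the 3 transcripts in untreated, 3 HAT and 10 HAT plants of each line (mean, bars are SD; n = 2 to 4). IAA15 led at 3 HAT in every line, IAA29 came close to it at 10 HAT, and the treated group means of Aux/IAA4-like stayed between 8256 and 11626.

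Per kb of coding sequence, IAA15 reached a mean of 40803 ± 9483 normalized counts in Flur-R (SD, n = 3), 30425 ± 6214 in 9425 (SD, n = 3) and 41759 ± 4964 in J01-S (SD, n = 2) at 3 HAT. IAA29 stood at 14725 ± 2068, 11034 ± 587 and 13669 ± 377 in the same groups, and Aux/IAA4-like at 8256 ± 1395, 11626 ± 3329 and 9464 ± 781. The spread of IAA15 did not overlap that of the others in any line, while in 9425 IAA29 and Aux/IAA4-like differed by less than their spread. By 10 HAT IAA29 stood at 28838 ± 5662 in Flur-R (SD, n = 4), 28796 ± 8830 in 9425 (SD, n = 4) and 28471 ± 1620 in J01-S (SD, n = 3), with libraries that overlapped those of IAA15, at 34287 ± 1911, 30486 ± 5218 and 33036 ± 4678. Aux/IAA4-like was lowest at 10 HAT in each line, with means of 10739, 11486 and 10322. Without the doubted libraries the means of IAA15, IAA29 and Aux/IAA4-like were 28004, 24900 and 11183 in 9425 (n = 3) and 35472, 27592 and 9450.0 in J01-S (n = 2), and in J01-S both IAA15 values, 33454 and 37491, then lay above both IAA29 values, 27039 and 28144.

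Ratios of the transcripts within a library are free of library scaling, and that of IAA29 to IAA15 separated the 2 time points. The ratio of IAA29 to IAA15 normalized counts was 0.492 to 1.29 in the 8 untreated libraries, 0.407 to 0.640 in the 8 libraries at 3 HAT and 0.904 to 1.48 in the 11 at 10 HAT. All 3 HAT libraries were below all 10 HAT libraries, in every line, and the untreated libraries overlapped both. The range at 10 HAT was the same without the 2 doubted libraries. The other ratios overlapped between the times over all lines, that of IAA29 to Aux/IAA4-like with 1.10 to 2.86 at 3 HAT and 2.71 to 5.43 at 10 HAT, and that of Aux/IAA4-like to IAA15 with 0.168 to 0.381 and 0.204 to 0.377. Within each line, however, IAA29 to Aux/IAA4-like did not overlap between 3 and 10 HAT. It was 2.59 to 2.86 against 3.23 to 5.43 in Flur-R and 1.10 to 1.69 against 2.71 to 4.90 in 9425. In J01-S it was 2.09 to 2.26 against 3.76 to 4.96. Aux/IAA4-like to IAA15 overlapped in 9425 and not in the other lines. From 3 to 10 HAT the log2 ratio of IAA29 to IAA15 went up by 1.30 (exact two-sided permutation test within lines, adjusted p over 9 tests = 0.000367), by 1.19 for Flur-R, 1.32 for 9425 and 1.40 for J01-S. It was up in 7 of 7 plants (exact sign-flip test with the plant as a block, adjusted p = 0.0352). The unadjusted p of 0.0156 in that sign-flip test is the smallest that 7 plants allow. Of these plants, 9425 plant 3 has a 10 HAT library that goes against its label, and the block test was not run without it. The change without the 2 doubted libraries was 1.23 (exact permutation test, adjusted p = 0.00214).

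The early part of the response went the other way. From untreated to 3 HAT the log2 ratio of IAA29 to IAA15 changed by -0.86 (exact permutation test, adjusted p = 0.0112), by -0.40 for Flur-R, -0.67 for 9425 and -1.53 for J01-S, and it was down in 7 of 7 plants (exact sign-flip test with the plant as a block, adjusted p = 0.0352). From untreated to 10 HAT it changed by 0.44 (exact permutation test, adjusted p = 0.0191), but by -0.13 in J01-S, and this did not pass with the plant as a block (0.61, exact sign-flip test, adjusted p = 0.0938) or without the 2 doubted libraries (0.36, exact permutation test, adjusted p = 0.0552).

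Aux/IAA4-like rose less than IAA29 by 10 HAT. The log2 ratio of IAA29 to Aux/IAA4-like went up by 1.26 from untreated to 10 HAT (exact permutation test, adjusted p = 0.00049) and by 0.95 from 3 to 10 HAT (exact permutation test, adjusted p = 0.000367), each in 7 of 7 plants, and by 1.23 and 0.93 without the 2 doubted libraries (exact permutation tests, adjusted p = 0.00214 for both). From untreated to 3 HAT it changed by 0.31, which did not pass (exact permutation test, adjusted p = 0.193). Against IAA15, Aux/IAA4-like changed by -1.17 at 3 HAT and -0.82 at 10 HAT relative to untreated and by 0.35 from 3 to 10 HAT (exact permutation tests, adjusted p = 0.0158, 0.0158 and 0.0267), and the last 2 were -0.87 and 0.30 without the doubted libraries (adjusted p = 0.0346 and 0.0218). With the plant as a block, where 5 of 7 plants shared the direction, none of these 3 passed (-1.05, -0.62 and 0.34; exact sign-flip tests, adjusted p = 0.0938, 0.141 and 0.141).

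**Figure D4:**
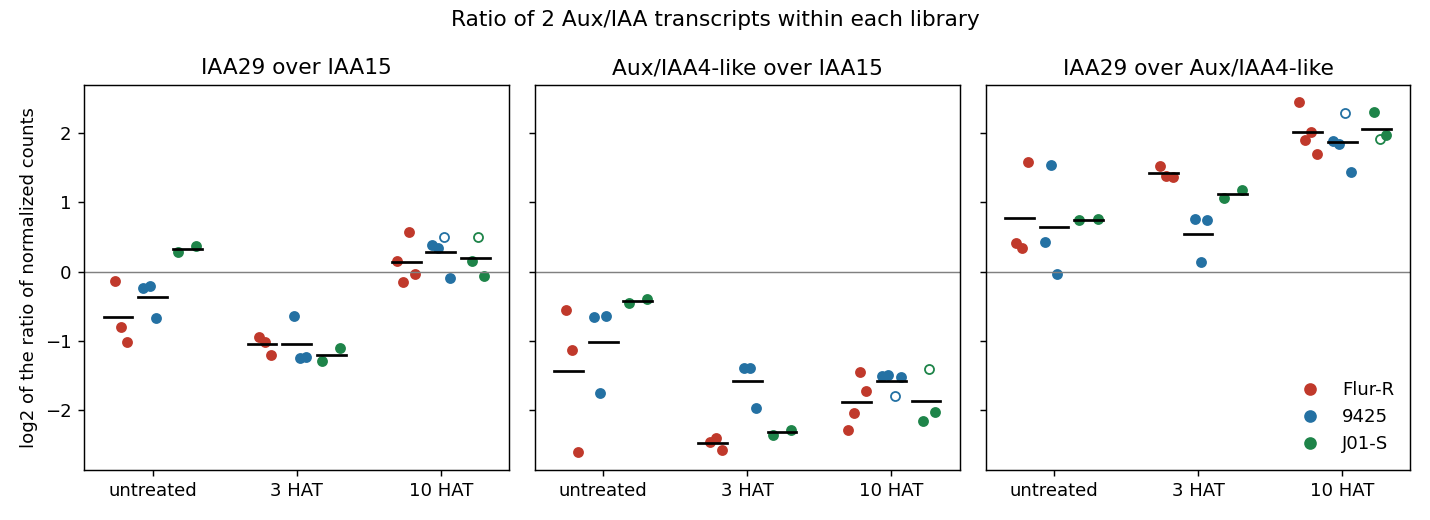
Log2 ratio of the normalized counts of a pair of Aux/IAA transcripts within each library, by time and line. Points are libraries, black bars are means of a line at that time, and open points are the 2 libraries that go against their labels. The ratio of IAA29 to IAA15 was 0.407 to 0.640 in all 8 libraries at 3 HAT and 0.904 to 1.48 in all 11 at 10 HAT.

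The lines could not be shown to differ in the size of these responses. Of 27 differences of response between lines (3 transcripts, 3 changes and 3 pairs of lines), limma called 0, and 7 had an unadjusted p under 0.05. All 7 set Flur-R or 9425 against J01-S, whose untreated IAA29 and Aux/IAA4-like values were high and rested on 2 libraries. Few transcripts were called in these comparisons, namely 0.0309%, 0.0377% and 0.182% for Flur-R against 9425 (the changes to 3 HAT, to 10 HAT and from 3 to 10 HAT), 0%, 0.0103% and 0.0686% for Flur-R against J01-S, and 0%, 0.00343% and 0% for 9425 against J01-S. The 3 largest of the 7 were all of 9425 against J01-S. They were Aux/IAA4-like at 3 HAT, with 1.57 more log2 units in 9425 (95% interval 0.38 to 2.76, adjusted p = 1), Aux/IAA4-like at 10 HAT, with 1.47 more (0.38 to 2.57, adjusted p = 0.790), and IAA29 at 10 HAT, with 1.38 more (0.37 to 2.38, adjusted p = 0.790). The first of these uses the 9425 rise at 3 HAT and is not independent of the choice of the transcripts. The same holds for the other comparisons that use the 9425 libraries at 3 HAT or its untreated libraries. Without the doubted libraries the differences at 10 HAT were 1.55 for Aux/IAA4-like and 1.24 for IAA29, and limma again called 0 of the 27. Between Flur-R and 9425 the differences for IAA29 were 0.17 at 3 HAT (95% interval -0.80 to 1.14) and -0.21 at 10 HAT (-1.12 to 0.71). For IAA15 they were -0.10 (-0.87 to 0.67) and -0.34 (-1.06 to 0.38), and for Aux/IAA4-like -0.57 (-1.63 to 0.49) and -0.22 (-1.21 to 0.77), so that differences of about 1 log2 unit between the resistant line and 9425 remain possible in either direction.

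Across the 27 libraries the 3 transcripts resembled each other closely, with Pearson's r of log2 values of 0.946 for IAA15 and IAA29, 0.944 for IAA15 and Aux/IAA4-like and 0.948 for IAA29 and Aux/IAA4-like. Most of this likeness is the shared difference between untreated and treated libraries. Without the 2 doubted libraries r was 0.951, 0.944 and 0.948. Over deviations from the 9 group means r was 0.729, 0.310 and 0.530 for the same pairs. Libraries of 1 plant are not independent, and these values are given as descriptions.

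The transcript most like IAA29 among all those tested was GH3.2 (Bs.00g477580.m01), whose product joins auxin to amino acids and so inactivates it, with r = 0.976. GH3.2 was the second most like IAA15, at 0.966, after Bs.00g358700.m01, which has no description in the sources used here, at 0.974. The next described transcripts for IAA29 were 2-oxoisovalerate dehydrogenase subunit alpha 2, an enzyme of branched-chain amino acid breakdown, at 0.967, and a precursor of the peptides CEP13 and CEP14 at 0.966. The most like Aux/IAA4-like were Bs.00g044610.m01, an uncharacterized protein, at 0.973, Bs.00g358700.m01 at 0.970 and, as the first described one, the cytochrome P450 CYP734A1, which in Arabidopsis inactivates brassinosteroids, at 0.951. With the 2 doubted libraries left out, the first place was unchanged for each of the 3 transcripts.

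Of 8 other auxin-pathway transcripts, 4 were called higher and 1 lower at 3 HAT in Flur-R and in 9425, 2 higher and 2 lower in J01-S, and 4 higher and 1 lower at 10 HAT in each line. Their median log2 fold change was 0.71, 1.12 and 0.28 at 3 HAT (Flur-R, 9425, J01-S) and 0.53, 0.65 and 0.73 at 10 HAT, with medians of 0 to 0.05 over all transcripts tested. Over all tested transcripts 4%, 3.33% and 3.28% were called lower at 3 HAT in the 3 lines, and 10.4%, 12.4% and 8.78% at 10 HAT. The list is mixed in function, and the 3 Aux/IAA transcripts are not in it. Of its 8 transcripts, 2 belong to the same locus, that of a PIN auxin efflux carrier, and moved alike. GH3.2 rose by 7.33 ± 0.69, 7.83 ± 0.69 and 6.82 ± 0.84 log2 units at 3 HAT (limma, adjusted p from 1.33e-06 to 6.88e-05), more than any of the Aux/IAA transcripts, from untreated means of 67.3, 92.0 and 279 normalized counts.

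ACS (Bs.00g478760.m01), which makes the precursor of ethylene, was close to 0 in untreated plants and rose by 8.04 ± 0.72, 5.92 ± 0.72 and 7.43 ± 0.88 log2 units at 3 HAT (limma, adjusted p from 7.70e-07 to 4.35e-05), values that depend on the 1 added to each count. Both transcripts of a PIN auxin efflux carrier locus (Bs.00g190770) rose at 10 HAT in all lines, by 1.22 to 1.62 log2 units (limma, adjusted p from 0.000198 to 0.00546), and at 3 HAT in Flur-R and 9425 only, a difference between lines that was not called. Of the 2 ARFs listed, 1 passed a comparison with untreated. ARF19/7 (Bs.00g057730.m01) was lower at 3 HAT in J01-S, by -1.05 ± 0.31 (adjusted p = 0.0389), and gave -0.43 and -0.67 in Flur-R and 9425 (adjusted p = 0.376 and 0.117), and at 10 HAT it gave -0.22, -0.30 and 0.04 in Flur-R, 9425 and J01-S, none of which passed. ARF3 (Bs.00g076170.m01), which the study described as lacking the domains for interaction with Aux/IAA proteins, gave -1.17 to 0.04 and passed no comparison with untreated. An auxin-inducible transcript (Bs.00g528960.m01) was the one that fell throughout, with log2 changes from -3.48 to -5.53.

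The tested genes next to the 3 loci were few, and 1 of them shared their pattern of calls. Of the 4 nearest loci of each, 3 had tested transcripts for IAA15, 2 for IAA29 and 2 for Aux/IAA4-like. For IAA15, 1 neighbour, Bs.00g301670 at 16166 bp, was called higher at both times in all 3 lines, as were 1.08% of all tested transcripts. The other 2 tested neighbours of IAA15 were called lower in at least 1 comparison with untreated. None of the tested neighbours of IAA29 was called in a comparison with untreated, and 1 of Aux/IAA4-like was, higher in J01-S at 10 HAT. In single comparisons with untreated, 3.95% to 11.3% of all tested transcripts were called higher and 3.28% to 12.4% lower. The share called in at least 1 of these comparisons was not computed. The nearest neighbour lay 10601 bp from IAA15, 29695 bp from IAA29 and 23689 bp from Aux/IAA4-like.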

How the data were processed

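RNA-seq of 27 libraries in 9 groups of line and time was used, grouped as the labels give it. Per the labels and the methods, the authors aligned reads to kochia coding sequences with HISAT2 (2.1.0 in the submitters' notes), counted reads by transcript and scaled the libraries with DESeq. What was deposited is these normalized counts rounded to whole numbers, treated here as a score, so read depth and counting error are unknown here and tests that need raw reads were not run. Coordinates are from the deposited gene models, of assembly version 2. The sequences of the genes were not analysed here. The study reported a nonsynonymous variant, which changes an amino acid, of Aux/IAA4-like in Flur-R. Whether sequence differences between the lines affect the read counts was not tested.

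Values of log2(normalized count + 1) were tested with limma 3.58.1 (R 4.3.3), which was fitted with a trend of the variance on the level and 1 mean per group over all 27 libraries, on transcripts of at least 10 in at least 2 libraries, with Benjamini-Hochberg adjustment within each comparison. A call needs an adjusted p below 0.05 with a log2 change of more than 0.5 either way. Within-library log2 ratios were tested with exact permutation tests. No per-sample column was left unused. The scripts were tested on simulated data.

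Within a line the plant number pairs libraries, as each plant was sampled repeatedly. The median correlation of deviations was 0.722, 0.460 and 0.607 within plants of Flur-R, 9425 and J01-S and -0.275, -0.158 and -0.222 between plants. Deviations sum to 0 within a group, so the values between plants are pushed below 0 by construction and are no separate evidence. The 3 transcripts, the lists and the tests were chosen with earlier results of these data known. Besides the 3 transcripts, the genes named were those of an auxin list, the described ones among the 5 most correlated with each and at most 2 without a description, and the nearest loci. Alternatives were added counts of 0.5 and 8, no filter or a filter at 50, TMM rescaling, only the groups compared, the plant as a fixed or random block, no doubted libraries, and each library left out in turn.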

Additional observations from a re-analysis of the deposited data

How the results depend on the processing

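The rises at 3 and 10 HAT were called under every alternative, except that of Aux/IAA4-like in J01-S at 3 HAT, which ranged from 1.75 to 2.36 with 1 library left out and was called in 2 of 4 such fits. The higher IAA29 at 10 than at 3 HAT in 9425 was called under all 17 alternatives (1.15 to 1.51). That of Flur-R was called with only the groups compared (0.96) and with a random replicate block (0.95), and that of J01-S with only the groups compared and without Flur-R plant 2 (1.06 in both). Lower untreated IAA29 in 9425 than in J01-S was lost with no filter (-1.41), TMM rescaling (-1.40), only the groups compared (-1.41), and the fixed (-1.55) and random (-1.47) replicate block, and ranged from -1.72 to -1.11 with 1 library left out. Without Flur-R plant 2, a setting chosen after seeing the data, Aux/IAA4-like was called lower than in J01-S in untreated 9425 (-1.31) and Flur-R (-1.85), and IAA29 in Flur-R (-1.64). With 1 library left out, the Flur-R differences ranged from -1.85 to -0.75 and from -1.64 to -0.76. On the ratios, the plant replicate block lost the changes of IAA29 over IAA15 from untreated to 10 HAT (0.61) and of Aux/IAA4-like over IAA15 at 3 HAT (-1.05), at 10 HAT (-0.62) and from 3 to 10 HAT (0.34), and the first was also lost without the 2 doubted libraries (0.36). With 1 library left out, Aux/IAA4-like over IAA15 from 3 to 10 HAT ranged from 0.28 to 0.40, called in 16 of 19, and IAA29 over Aux/IAA4-like at 3 HAT from 0.19 to 0.46, called in 1 of 16. With no division by length the untreated ratios were -0.30 for IAA29 over IAA15, no longer called, and 0.72 for IAA29 over Aux/IAA4-like, now called.

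The other changes of direction were all in differences that were never called, and their cause was not tested. From 3 to 10 HAT, Aux/IAA4-like in 9425 became -0.0057 with TMM rescaling and -0.022 without the doubted libraries (-0.13 to 0.24 with 1 library left out), and in J01-S -0.0067 without them (-0.0067 to 0.24). IAA15 in 9425 became -0.012 with TMM rescaling and -0.10 without them (-0.16 to 0.14), and in J01-S 0.080 with the fixed replicate block. Without Flur-R plant 2 the untreated differences of Flur-R from 9425 became -0.54 for Aux/IAA4-like and -0.23 for IAA29, and with 1 library left out they ranged from -0.54 to 0.56 and from -0.23 to 0.65, while IAA15 in Flur-R less J01-S ranged from -0.54 to 0.14. Response differences of Flur-R less 9425 without that plant were 0.14 at 3 HAT and 0.46 at 10 HAT for Aux/IAA4-like, 0.18 at 3 HAT for IAA15 and 0.33 at 10 HAT for IAA29. With the replicate block those of IAA15 in Flur-R less J01-S were -0.19 at 10 HAT and, from 3 to 10 HAT, -0.33 (fixed) and -0.015 (random). With 1 library left out, response differences of Flur-R less 9425 ranged from -1.03 to 0.073 and from -0.68 to 0.43 for Aux/IAA4-like at 3 and 10 HAT, from -0.43 to 0.11 for IAA15 at 3 HAT, and from -0.24 to 0.64 and from -0.61 to 0.26 for IAA29 at 3 and 10 HAT. Those of Flur-R less J01-S ranged for IAA15 from -0.19 to 0.48 at 3 HAT, from -0.080 to 0.60 at 10 HAT and from -0.0071 to 0.30 between them, and for IAA29 from -0.22 to 0.010 between them. Those of 9425 less J01-S ranged for IAA15 from -0.10 to 0.58 at 3 HAT and for Aux/IAA4-like from -0.24 to 0.13 from 3 to 10 HAT.

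The replicate block changed no call other than those named. The groups of 2 libraries in J01-S limit the comparisons with that line, and depth cannot be read from normalized values.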
